A study of Mus musculus with 4 samples.

Results

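Pdk4 and 9 of its neighbours on mouse chromosome 6 were followed in activated CD4+ T cells of knockout and wild-type mice, to give the values of the genes that lie beside the targeted locus. The 10 genes, taken by symbol from the 23238 symbols of the count tables, were Samd9l, Casd1, Sgce, Peg10, Pon3, Pon2, Pdk4, Dync1i1, Slc25a13 and Shfm1. The 4 libraries came from naive CD4+ T cells of spleen and lymph nodes, sorted by MACS (magnetic beads) and cultured over 48 hours of activation through CD3, CD28 and IL-2. There were 2 libraries of the genotype PDK4 KO and 2 of the genotype WT, and the strain given for all 4 was C57BL/6j. The labels name neither the knockout allele nor the part of Pdk4 that it removes, nor the cells it was made in, nor the age of the mice. Nor do they say whether replicates were separate animals or cultures: the spread behind each p-value is that of 2 libraries a genotype and could be technical.

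Pdk4 encodes a pyruvate dehydrogenase kinase of mitochondria, which switches off the pyruvate dehydrogenase complex and is known to be induced by fasting and fatty acids. In a mouse whose gene was targeted in cells of another strain, DNA on either side of the locus can stay with the allele through backcrossing, because near genes are inherited together. Genes beside a target are therefore usually read as a group when a knockout is compared with its control. Several genes of this stretch are also imprinted in mice, which means that only the copy from the father or only the copy from the mother is active.

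The libraries held 9739624 and 9104413 counts in PDK4 KO and 8837810 and 9575879 counts in WT. Levels are CPM, counts scaled to library size with TMM factors, and a floor of 3 counts corresponded to 0.307 to 0.341 CPM. All 6 CD4 T cell markers were tested and 0 of them changed, with summed levels of 1681 and 1683 CPM in PDK4 KO and 1695 and 1766 CPM in WT. Of 7 B cell markers 4 fell, Pax5 was at 0 counts in all libraries, and the summed level was 99.7 and 117 CPM in PDK4 KO and 172 and 202 CPM in WT. Markers of CD8 T and NK cells (5 genes) summed to 150 and 168 CPM in PDK4 KO and 158 and 175 CPM in WT, with 0 changed among the 4 tested. Nkg7 made up most of these sums, at 119 and 125 CPM in PDK4 KO and 111 and 134 CPM in WT. Cd8a had 4 and 5 counts in PDK4 KO and 23 and 28 counts in WT (edgeR adjusted p = 0.119), and entered the test only through WT. The log2 fold changes of Cd8b1, Klrd1 and Nkg7 were -0.30, -0.08 and -0.0038. The 6 myeloid markers summed to 1.64 and 12.5 CPM in PDK4 KO and 6.37 and 6.34 CPM in WT, with 0 changed among the 2 tested. Across all tested genes, 305 of 11464 passed edgeR's quasi-likelihood test at an adjusted p under 0.05, which is 2.66%, and "rose" and "fell" are used for such genes only.

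The 10 genes lie between positions 3372257 and 6578663 of chromosome 6 (GRCm38), a stretch of 3.21 Mb that also holds 13 other genes of the count tables. Pdk4 itself spans 5483351 to 5496309 on the minus strand. Towards the start of the chromosome lie Pon2 and Pon3, whose starts are 0.198 and 0.240 Mb from that of Pdk4. Beyond them come Peg10 and Sgce, at 0.749 Mb each, then Casd1 at 0.895 Mb and Samd9l at 2.10 Mb. On the other side lie Dync1i1 at 0.229 Mb, Slc25a13 at 0.721 Mb and Shfm1, which the annotation calls Sem1, at 1.08 Mb. All 10 are protein-coding, and none of them overlaps another protein-coding gene. Of the 10 genes, 9 had a count in some library, and 7 passed the filter on low counts and were tested.

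**Figure D1:**
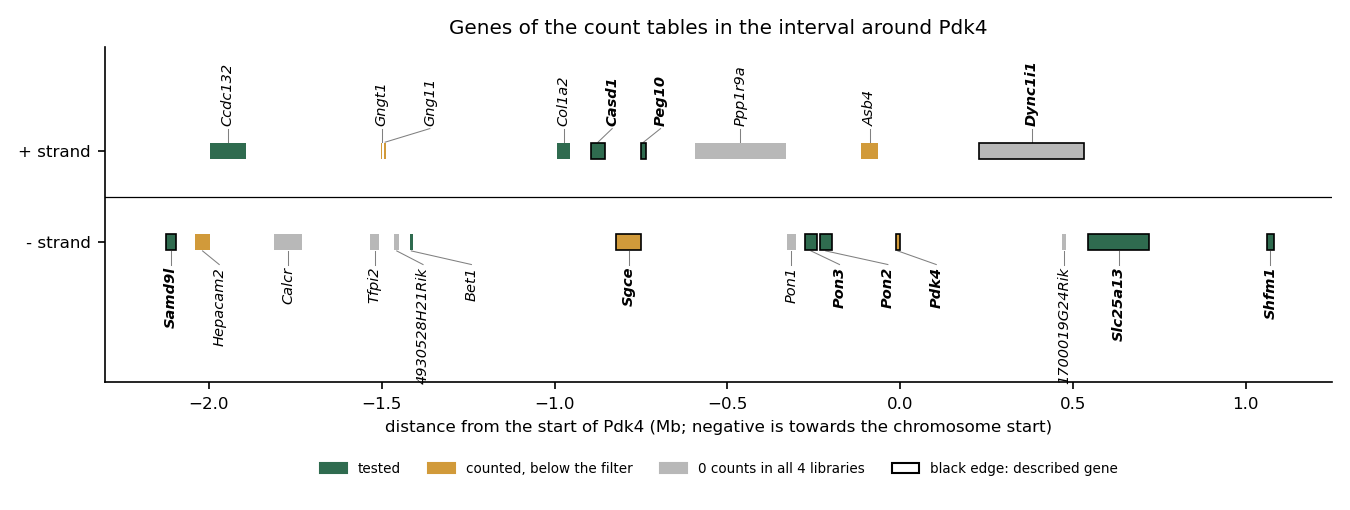
Genes of the count tables between Samd9l and Shfm1, drawn to scale by their distance in Mb from the start of Pdk4, with the plus strand above and the minus strand below. Green genes were tested, ochre genes had counts but were below the filter, grey genes had 0 counts in all 4 libraries, and a black edge marks the 10 genes described. Pdk4 and Sgce are ochre and Dync1i1 is grey.

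Pdk4 was barely counted in either genotype. It had 0 and 2 counts in PDK4 KO replicates 1 and 2, against 1 and 0 counts in WT replicates 1 and 2. All 4 values are at or under the floor and the genotypes overlapped, so no difference could be detected at this depth and no fold change is given. Reads from the 3' end persist if the removed part lies elsewhere in the gene, so these counts check nothing about the genotype labels. The other kinases of the family, Pdk1, Pdk2 and Pdk3, did not pass the test, with edgeR adjusted p of 0.12, 0.889 and 0.604 and log2 fold changes of 0.56, -0.36 and 0.19.

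Of the 7 tested genes around Pdk4, 1 rose and 1 fell in PDK4 KO, and 5 did not pass. The shares of all tested genes that rose and fell were 1.45% and 1.21%. The members' median log2 fold change was 0.15, against 0.00041 over all tested genes. Peg10 entered the test only through its WT counts, so a count over the tested genes is given as a description and not as support.

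**Figure D2:**
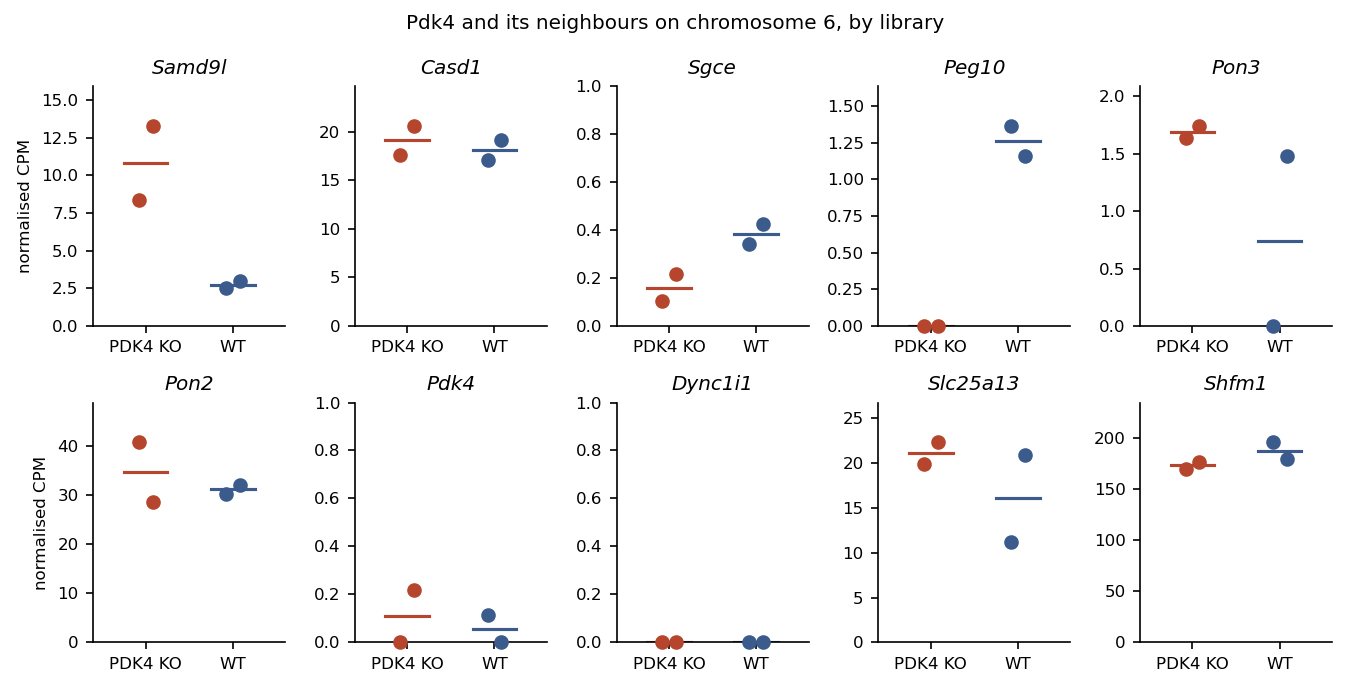
Level of each of the 10 genes in normalised CPM (vertical axes, each from 0), with PDK4 KO libraries on the left and WT libraries on the right of each panel. Points are single libraries and bars are means of 2 libraries. The genotypes are wide apart for Samd9l and Peg10, with both PDK4 KO libraries of Peg10 at 0, and single libraries stand apart for Pon3 and Slc25a13, where WT replicate 1 is the lowest.

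Peg10, which derives from a retrotransposon and is expressed from the paternal copy, was seen in WT alone. It had 0 and 0 counts in the PDK4 KO libraries and 12 and 11 counts in the WT libraries, which is 1.36 and 1.16 CPM in WT replicates 1 and 2. The genotypes did not overlap, as was also the case for 43.4% of all tested genes. Over both WT libraries together the level was 1.26 CPM. This is 7.97-fold above a floor of 3 counts over both PDK4 KO libraries together, or 0.158 CPM. Counting error in WT is left out of that ratio, so it is not a lower bound on the difference. The 95% intervals for counting error reached down to 0.799 CPM in WT and up to 0.195 CPM in PDK4 KO. Peg10 was past the threshold of edgeR's quasi-likelihood test (adjusted p = 0.0472), but it passed the filter only through the genotype in which it was counted and so had to differ. The call was lost in 8 of the 11 alternative settings in which the gene was tested, with adjusted p over the 11 between 0.00951 and 0.381, the last from edgeR without PDK4 KO replicate 1, and without either WT library the gene no longer passed the filter.

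Sgce, the gene for epsilon-sarcoglycan, is also active on the paternal copy and starts next to Peg10 on the opposite strand. The gap between the 2 genes in the annotation is 98 bases. Sgce had 1 and 2 counts in PDK4 KO and 3 and 4 counts in WT. All 4 counts were near the floor, and the gene was not tested. Asb4, a ubiquitin ligase adaptor expressed from the maternal copy in mice and lying between Pon2 and Pdk4, was named after its values were seen. It had 4 and 8 counts in PDK4 KO and 0 and 0 counts in WT, the opposite order to Peg10, and was not tested. The lower PDK4 KO count lay just above the floor of 3 counts. Genotypes that do not overlap were also seen for 43.4% of all tested genes. Other imprinted genes of the stretch, Calcr, Tfpi2 and Ppp1r9a, had 0 counts in all 4 libraries.

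Casd1, which encodes an enzyme that acetylates sialic acids on glycoproteins and glycolipids, lies 30994 bases from Sgce. It had 17.6 and 20.6 CPM in PDK4 KO and 17.1 and 19.1 CPM in WT. The libraries of the genotypes overlapped, and the log2 fold change was 0.07 with a 95% interval of -0.38 to 0.53 (edgeR adjusted p = 0.94). The data therefore leave room for a change between 0.769-fold and 1.44-fold.

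Samd9l rose in PDK4 KO and was the only gene of the 10 that did. Its protein is induced by interferons and restrains cell growth and virus replication. It had 82 and 122 counts in PDK4 KO and 22 and 28 counts in WT, or 8.39 and 13.3 CPM in PDK4 KO and 2.50 and 2.96 CPM in WT. Both PDK4 KO libraries were above both WT libraries. The mean was 10.8 ± 3.46 CPM in PDK4 KO and 2.73 ± 0.323 CPM in WT (SD, n = 2 each). The log2 fold change was 1.98 (SE 0.398, 95% interval 1.17 to 2.79, edgeR adjusted p = 0.00239), a 3.94-fold higher level. Without PDK4 KO replicate 2, the higher of its genotype, the log2 fold change was 1.61 and the call was lost (edgeR adjusted p = 0.116), against adjusted p between 3.82e-05 and 0.116 over the 13 alternative settings. Of the 7 B cell markers, 4 fell in these libraries, and their part in the values of Samd9l and Peg10 was not tested. The 2 tested myeloid markers, neither of which passed, were also higher in PDK4 KO replicate 2 than in replicate 1. Cd68 had 4 and 60 counts in PDK4 KO replicates 1 and 2, and S100a8 had 10 and 47. Their part in the values of Samd9l was not tested either. In bulk RNA, fewer cells of a type and less RNA per cell cannot be told apart.

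The promoter window of Samd9l is shown because the gene belongs to a set of genes that interferons act on through short DNA motifs. It covers chr6:3399522-3399821 on the minus strand (RefSeq, GRCm38.p6), with 250 bases before and 50 bases after the start, and capitals mark the letters GAAANNGAA.
Samd9l: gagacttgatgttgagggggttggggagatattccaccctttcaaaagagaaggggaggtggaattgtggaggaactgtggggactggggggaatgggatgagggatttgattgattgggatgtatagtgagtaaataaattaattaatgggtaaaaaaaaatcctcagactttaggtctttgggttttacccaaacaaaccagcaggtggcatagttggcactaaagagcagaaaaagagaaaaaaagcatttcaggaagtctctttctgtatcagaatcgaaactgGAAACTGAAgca
The interferon-stimulated response element was searched as GAAANNGAA with 1 more A at its end, and STAT dimer sites as TTCNNNGAA. Neither was present in the window on either strand. GAAANNGAA itself, which every such response element contains, was added after the letters of the window were seen. It occurred 1 time, on the printed strand, at bases 39 to 47 counted from 1 at the start of the gene. Among all 32851 promoter windows of the same length, 3.44% held the response element, 8.30% held TTCNNNGAA and 8.56% held GAAANNGAA. RefSeq windows were present for 8 of the 10 genes (9 windows), and 0 of the windows of genes other than Samd9l held any of the 3 motifs.

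Samd9l was among 29 interferon-response genes listed with earlier results of these data known. Of the 27 that were tested, 14 rose, 0 fell and 13 did not pass, while 1.45% of all tested genes rose. Some of the 27 passed the filter only through their PDK4 KO counts and so had to lie above WT. The counts over this list are therefore given as a description and not as support. With Samd9l left out, 13 of 26 rose and the median log2 fold change was 1.33, against 0.00041 over all tested genes. The 4 with the smallest p were Ifi44, a protein of the antiviral response (38.9 and 41.8 CPM in PDK4 KO, 9.21 and 5.60 CPM in WT), Isg15, a ubiquitin-like modifier (62.4 and 77.3 CPM in PDK4 KO, 24.0 and 23.7 CPM in WT), Oas3, an oligoadenylate synthetase (31.7 and 34.7 CPM in PDK4 KO, 9.10 and 10.1 CPM in WT), and Trim30a, a ubiquitin ligase (312 and 316 CPM in PDK4 KO, 206 and 201 CPM in WT). Of 20 listed genes with a promoter window, 11 held the response element, 13 held GAAANNGAA and 3 held TTCNNNGAA. The list includes Samd9l, whose letters had been seen before GAAANNGAA was added. These are counts of genes, while the shares given for all promoters are of windows.

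**Figure D3:**
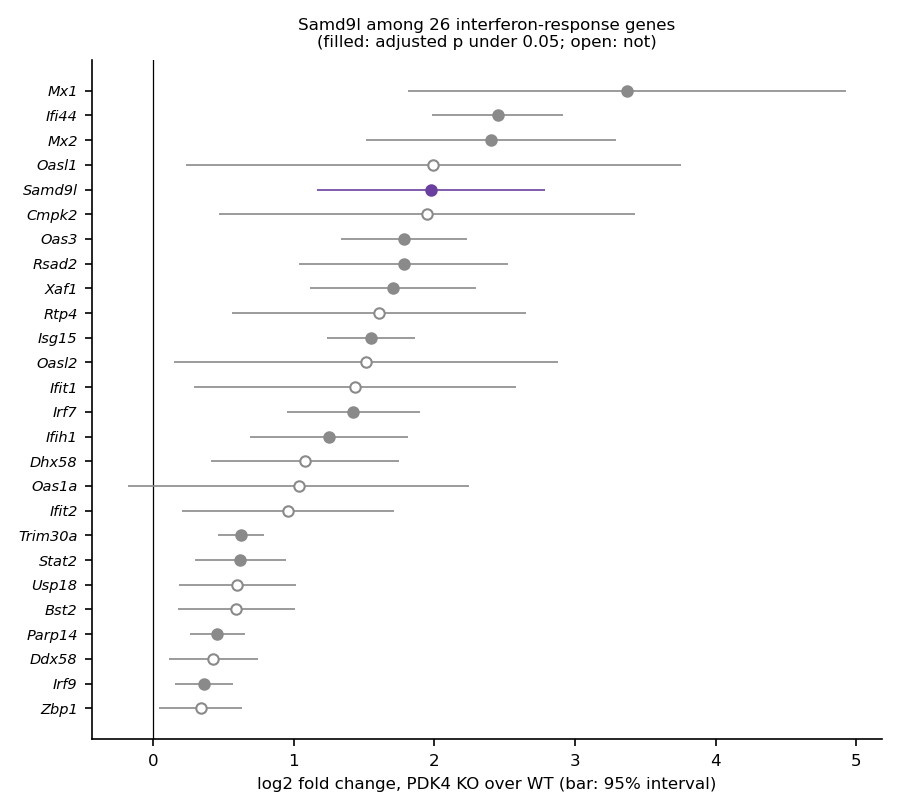
Log2 fold change of PDK4 KO over WT (horizontal axis) for 26 of the 27 tested interferon-response genes, with 95% intervals as bars and Samd9l in purple. Filled points passed an adjusted p under 0.05 and open points did not. Samd9l lies at 1.98, and all 26 points lie to the right of 0.

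The genes whose pattern over the 4 libraries was most like that of Samd9l were sought among 8939 tested genes that averaged 5 CPM or more. Symbols made of Gm and a number, or ending in Rik, were left out beforehand. Likeness was the root mean square difference between log2 CPM values, each gene centred on its own mean. The closest were Oas3 (0.19 on the log2 scale), Isg15 (0.23), Ifi203 (0.27), Rsad2 (0.27) and Pisd-ps2 (0.34). They lie on chromosomes 5, 4, 1, 12 and 17, and 3 of them, Oas3, Isg15 and Rsad2, are on the interferon-response list. Ifi203 has close relatives beside it and Pisd-ps2 is a pseudogene, so reads of both may be shared with similar genes. The values are descriptions over 4 libraries.

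The paraoxonase genes Pon2 and Pon3 lie next to each other on the minus strand, with a gap of 7860 bases. Pon2, an intracellular lactonase with antioxidant activity, had 40.7 and 28.5 CPM in PDK4 KO and 30.1 and 32.1 CPM in WT. The highest and the lowest of these values were both in PDK4 KO, and the log2 fold change of 0.15 (95% interval -0.21 to 0.52) did not pass (edgeR adjusted p = 0.792). Pon3, a related lactonase found mainly in liver and serum, had 16 and 16 counts in PDK4 KO and 0 and 14 counts in WT. Only WT replicate 1 stood apart from the other libraries. The log2 fold change of Pon3 was 1.15 (95% interval -0.80 to 3.11, edgeR adjusted p = 0.675), and it was 0.19 without WT replicate 1 and 6.98 without WT replicate 2. Pon1, the third gene of the cluster, had 0 counts in all 4 libraries. How reads with several matches were treated is not given in the sources used here, so reads shared between Pon2 and Pon3 cannot be told apart.

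On the other side of Pdk4, Slc25a13 and Shfm1 were tested and neither passed, against 2.66% of all tested genes that did. Dync1i1, an intermediate chain of cytoplasmic dynein used mainly in neurons, had 0 counts in all 4 libraries. A count of 0 allows a level of up to 0.195 CPM over both PDK4 KO libraries and 0.202 CPM over both WT libraries. These are upper ends of 95% intervals for counting error only. Slc25a13, the mitochondrial aspartate-glutamate carrier citrin, had 195 and 205 counts in PDK4 KO and 99 and 198 counts in WT. In CPM this was 19.9 and 22.3 in PDK4 KO and 11.3 and 20.9 in WT, and WT replicate 1 alone was low. The log2 fold change was 0.39 (95% interval -0.11 to 0.89, edgeR adjusted p = 0.529), against 0.01 without WT replicate 1 and 0.90 without WT replicate 2.

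Shfm1, a small acidic protein of the proteasome lid that also binds BRCA2, had 1661 and 1615 counts in PDK4 KO and 1717 and 1692 counts in WT. The levels were 170 and 176 CPM in PDK4 KO and 195 and 179 CPM in WT. Both PDK4 KO libraries were below both WT libraries, by a small margin. The log2 fold change of -0.11 (95% interval -0.30 to 0.07) did not pass (edgeR adjusted p = 0.65). With the narrowest interval of the 7 tested genes, Shfm1 left room for a change between 0.814-fold and 1.05-fold.

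The 10 genes were then set beside every other tested gene near Pdk4. Of 54 genes of the tables that start within 10 Mb of Pdk4, 36 had a count and 24 were tested, and 2 of these rose and 1 fell. Since Pdk4 lies close to the end of the chromosome where positions begin, the window reaches further on the side of Shfm1. Leaving out the described genes, 1 of 17 changed, which is 5.88%, against 2.66% of all tested genes. The gene was Asns, asparagine synthetase, an enzyme induced when amino acids are scarce, which starts 2.20 Mb from Pdk4 at the side of Shfm1. It had 244 and 252 CPM in PDK4 KO and 167 and 180 CPM in WT, a log2 fold change of 0.52 (SE 0.0862, edgeR adjusted p = 0.000189). The medians of the log2 fold change were 0.03 over the 24 genes and -0.07 over the 17, against 0.00041 over all tested genes.

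By distance from Pdk4, 1 of 10 tested genes changed within 2 Mb, which was Peg10 with the limits given above, 2 of 8 between 2 and 5 Mb and 0 of 6 between 5 and 10 Mb. Further out, 1 of 9 changed between 10 and 20 Mb, 0 of 74 between 20 and 40 Mb and 5 of 441 beyond 40 Mb. The gene between 10 and 20 Mb was Mdfic, an inhibitor of MyoD family factors, which rose by 0.39 on the log2 scale (edgeR adjusted p = 0.0335) and was named after its values were seen. Over chromosome 6 as a whole 9 of 548 tested genes changed, which is 1.64%, and the 20 chromosomes looked at (1 to 19 and X) ran between 1.34% and 4.30%. The median size of the log2 fold change without its sign was 0.40 over the 24 genes within 10 Mb, against 0.18 over all tested genes. The median level was lower near Pdk4, at 13.6 CPM against 23.9 CPM, and its part in the larger size was not tested.

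**Figure D4:**
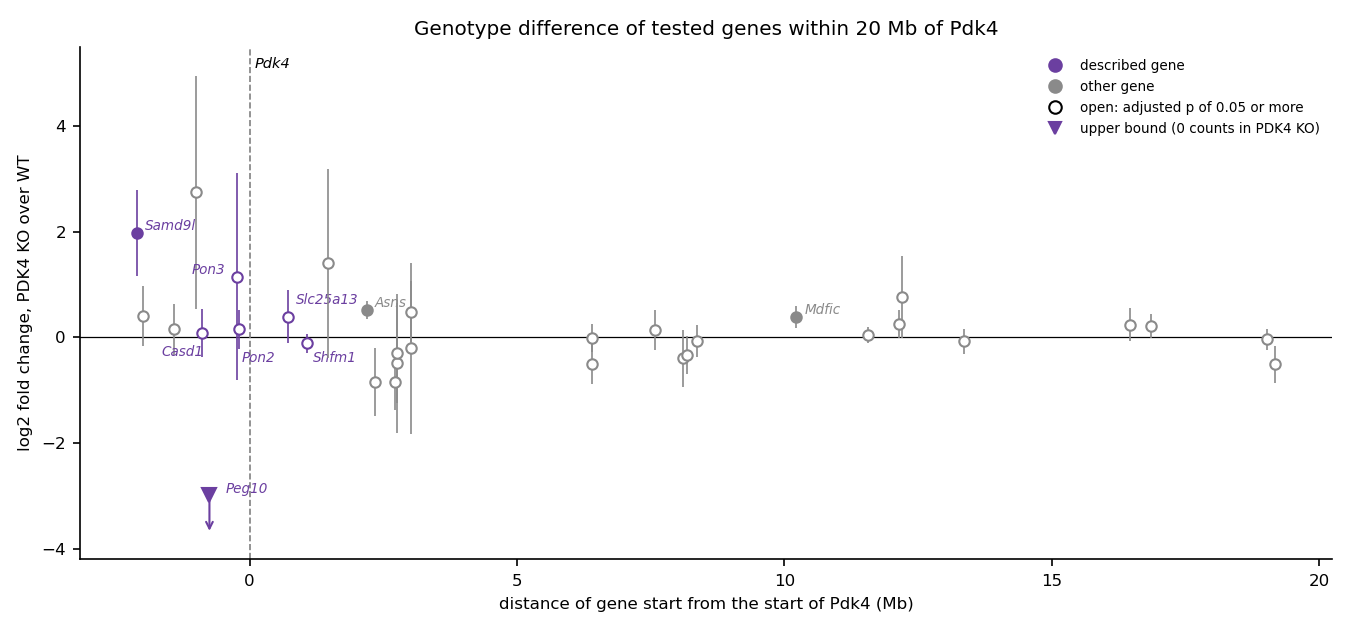
Log2 fold change of PDK4 KO over WT (vertical axis) for the 33 tested genes within 20 Mb of Pdk4, by distance of the gene start from that of Pdk4 (horizontal axis, Mb). Purple marks the described genes, bars are 95% intervals and open points did not pass an adjusted p under 0.05. The triangle gives Peg10 at -2.99, from the floor over PDK4 KO and without counting error in WT. It is labelled an upper bound, but with counting error in WT it is not one. Filled points are Samd9l, Asns and Mdfic, and open points lie on both sides of 0.

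Col1a2, a collagen chain of fibroblasts that lies beside Casd1, was named after its values were seen. It had 11 and 18 counts in PDK4 KO and 1 and 3 counts in WT, and it did not pass (log2 fold change 2.74, 95% interval 0.54 to 4.95, edgeR adjusted p = 0.221). The genotypes did not overlap, as was also the case for 43.4% of all tested genes, and 2 of the 4 libraries, those of WT, were at or under the floor. Col1a2 passed the filter only through its PDK4 KO counts and so had to differ.

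A pair of transcripts known to differ between mouse strains was looked at outside chromosome 6. Nnt, the mitochondrial transhydrogenase, carries a deletion in C57BL/6J mice that C57BL/6N and most other strains lack. It fell in PDK4 KO, at 12.3 and 12.7 CPM in PDK4 KO and 38.2 and 32.8 CPM in WT, with a log2 fold change of -1.50 (SE 0.205, edgeR adjusted p = 8.85e-06). Ifi202b, which is low in C57BL/6 mice and high in several others, had 0 counts in all 4 libraries. Whether strain background plays a part in the values of Samd9l, Peg10 or Asns was not tested.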

How the data were processed

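For each library the authors deposited a table of raw counts by gene symbol. Per the labels' protocols, libraries were made from 500 ng of total RNA with a Lexogen QuantSeq kit, which reads the 3' end of transcripts. The tools Bowtie2 and edgeR and the build mm10 are named per the submitters' processing notes. The sources used here do not give the counter, its annotation, or how strand and reads with several matches were treated. Repeated rows of 35 symbols were added up. The test was that of edgeR 4.0.16, run in R 4.3.3 (quasi-likelihood F test, two-sided, filterByExpr, TMM, genotype as the only term), with Benjamini-Hochberg adjustment over 11464 genes. Intervals use the fit's degrees of freedom, and intervals and floors cover 2 libraries or counting error only. Positions are from GENCODE M21 (GRCm38), matched by symbol or older symbol for 11351 tested genes. The fit was tested on simulated data. Alternatives used other scalings and filters, DESeq2 1.42.0, limma 3.58.1 (voom), left-out libraries, a replicate block and counts without Rn45s. The members and lists were chosen with earlier results of these data known. Named besides the members were called genes within 10 Mb, the 4 interferon-response genes with the smallest p, the 5 genes most like Samd9l, Pdk1 to Pdk3, Nnt, Ifi202b and cell type markers. The value of 1 listed interferon-response gene is not reported here.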

Additional observations from a re-analysis of the deposited data

How the results depend on the processing

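Over the alternatives, the 7 tested genes among the 10 kept their side of the threshold except for Peg10 (in 8 of 11) and Samd9l (in 1 of 13). Pisd-ps2 lost its call without PDK4 KO replicate 2 (edgeR adjusted p = 0.0694), and Mdfic was not looked at under the alternatives. The count of the 10 genes that changed was 2, and it was 1 with DESeq2's size factors, upper quartile scaling, library size only, no filter, DESeq2 and the replicate block, and 0 to 1 without single libraries. The adjusted p of Peg10 from edgeR was 0.0542, 0.0677 and 0.0581 in the 3 other scalings, 0.173 with no filter and 0.128 with the replicate block. The adjusted p from DESeq2 was 0.103, and that from limma-voom was 0.0329. Among genes within 10 Mb the count of 3 was 2 with DESeq2's size factors, upper quartile scaling, library size only and DESeq2. It was also lower when any single library was left out. All changed genes numbered 305, and 170 to 293 without single libraries, with 184 without WT replicate 2 and 170 without PDK4 KO replicate 1. With the replicate block they numbered 260, with 2 genes within 10 Mb and 13 interferon-response genes. With all 4 libraries and other methods, scalings or filters, all changed genes ran between 235 (DESeq2) and 377 (no filter), with 250 in upper quartile scaling. The correlation of same-numbered deviations was 0.011, so no shared effect of the replicate numbers was seen. With 2 libraries a genotype, this cannot show that the libraries were unpaired. Interferon-response rises ranged between 10 and 16. The sign of uncalled genes turned for Casd1 (-0.042 to 0.18 over the settings without single libraries, negative without WT replicate 1 and without PDK4 KO replicate 2) and Pon2 (-0.13 to 0.39, negative without PDK4 KO replicate 1). Scaling moved the median of all genes by less than 0.1 on the log2 scale. Depth limits Pdk4, Sgce, Asb4 and Dync1i1, which had at most 8 counts in a library.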
